A study of Mus musculus with 9 samples.

Results

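The comparison described here set 3 libraries from P301S tau transgenic mice given a scrambled peptide against 3 libraries from untreated wild-type mice, 6 of the 9 libraries sequenced, taken by their titles. Each library held RNA from nuclei carrying NeuN, the neuronal nuclear protein made by Rbfox3, that had been sorted from cortex of mice aged 7 to 9 months. The transgenic mice received the scrambled peptide into the abdomen every second day at 20 mg per kg body weight, and the wild-type mice received nothing, so that genotype and injection cannot be told apart. The remaining 3 libraries came from transgenic mice given the Cdk5i peptide at the same dose, and they are quoted only to place a value. The labels name neither the transgenic line nor the promoter that drives the transgene, and they leave unsaid whether the libraries of a group are different animals. The p-values therefore reflect how far libraries of a group varied, which could be technical variation alone.

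P301S is a mutation in the microtubule-binding part of tau that causes an inherited frontotemporal dementia. Tau normally binds microtubules in axons, and mutated tau comes off them, becomes heavily phosphorylated and gathers into filaments inside neurons. Mice that carry the human mutant gene develop such inclusions, loss of synapses and, with age, loss of neurons. Nuclear RNA is rich in unspliced transcripts, so these values follow ongoing transcription more closely than whole-cell RNA does. In sorted nuclei, fewer nuclei of a type and less RNA per nucleus cannot be told apart.

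The 6 libraries held between 21584712 and 25367838 counts over genes, and 16046 genes had enough counts to be tested. Ribosomal RNA took 1.13 to 3.06% of counts and mitochondrial transcripts 0.0922 to 0.137%. Rbfox3 itself stood at 1134, 1309 and 1105 CPM (counts scaled by library size) in wild type and at 1234, 1343 and 1299 CPM with scrambled peptide, so both groups carried the marker of the sort. Among other cell types, the excitatory neuron markers summed to 2501 to 2604 CPM in wild type and 2515 to 2629 CPM with scrambled peptide, while the 8 tested endothelial and mural markers summed to only 6.36 to 10 and 6.62 to 7.70 CPM. Mapt, which encodes mouse tau, measured 194, 211 and 206 CPM in wild type and 245, 227 and 226 CPM with scrambled peptide. The groups did not overlap, but the log2 difference of 0.19 ± 0.06 (SE) did not pass the test (edgeR quasi-likelihood test, adjusted p = 0.330). Counting of the human transgene was not analysed here, so the genotype has no direct check from these values.

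Few genes passed the test. At an adjusted p under 0.05 over all genes, 6 of 16046 genes rose with scrambled peptide in P301S mice (0.0374%) and 7 fell (0.0436%), together 13 genes or 0.0810%. Before adjustment, 1614 genes (10.1%) had a p under 0.05, 780 of them higher (4.86%) and 834 lower (5.20%), and the groups did not overlap in 2613 genes (16.3%), 1325 of them higher (8.26%) and 1288 lower (8.03%). Over all genes the median log2 fold change was 0.0084, the median SE 0.14 and the median reach of the 95% interval 0.30 to each side. The 13 genes lay on 8 chromosomes, and 7 of them had another of the 13 within 6 Mb. The number depends on single libraries: it was 8 when wild-type replicate 1 was left out, 3 for wild-type replicate 2, 3 for wild-type replicate 3, 2 for scrambled replicate 2 and 17 for scrambled replicate 3. In the fits with fewest genes, 2 and 3, all were among the 13. Lamr1-ps1 and Gm9866 passed in all 6 fits that left out 1 library, and Unc5c in all but the one without scrambled replicate 2.

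**Figure D1:**
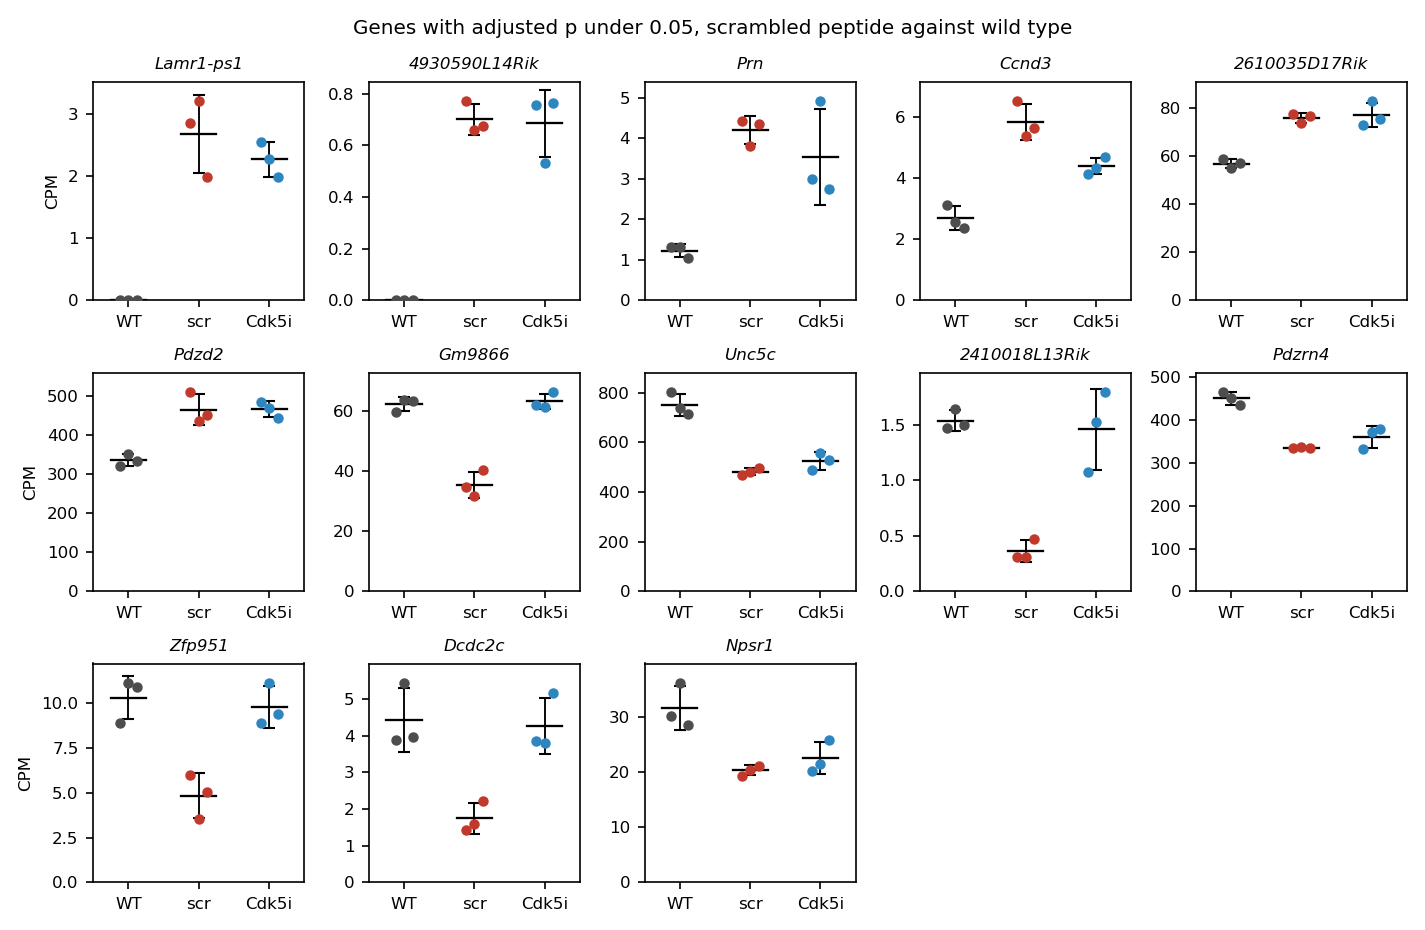
Expression of the 13 genes past the threshold, in CPM (vertical axis from 0), for wild-type, scrambled-peptide and Cdk5i libraries; points are libraries, horizontal bars means and error bars SD of 3 libraries. In each panel the wild-type and scrambled-peptide points do not overlap, and the Cdk5i points overlap the wild-type points in 4 panels (Gm9866, 2410018L13Rik, Zfp951 and Dcdc2c).

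The transcript with the lowest p came from beside the prion gene. Lamr1-ps1 (ENSMUSG00000081229) is a processed pseudogene of Rpsa, the gene of a protein of the small ribosomal subunit that also acts as a laminin receptor. It lies on the plus strand of chromosome 2 at 131904086 to 131904959 (GRCm38), 5.0 kb upstream of Prn. It had 0 counts in each of the 3 wild-type libraries and 74, 73 and 50 counts in the scrambled-peptide libraries. Every scrambled-peptide library was therefore above every wild-type library, and the difference was at least 57.3-fold if 3 counts are allowed to the wild-type libraries together, a bound that covers counting error only (adjusted p = 2.95e-04). The Cdk5i libraries, from mice with the same genotype, held 57, 60 and 52 counts.

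The sequence of the pseudogene separates it from its parent gene, which matters because near-identical copies can share reads. The lines below show the 120 aligned bases with the fewest differences inside the coding part of the parent, with differing bases in capitals on both lines (GENCODE transcripts, 5′ to 3′).
Lamr1-ps1: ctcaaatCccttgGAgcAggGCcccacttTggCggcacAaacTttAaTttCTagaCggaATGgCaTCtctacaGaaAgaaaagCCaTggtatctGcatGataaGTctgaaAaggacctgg
Rpsa: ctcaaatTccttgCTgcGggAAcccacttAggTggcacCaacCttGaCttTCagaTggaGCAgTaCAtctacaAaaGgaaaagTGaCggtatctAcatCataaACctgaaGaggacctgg
These lines differ at 31 of 120 positions, and over the whole alignment of 900 columns the identity was 71.7%, with no identical run longer than 25 bases. None of the 835 windows of 40 bases in the pseudogene, the length of 1 read, occurred in the Rpsa transcript or in the 15 transcripts of genes named after Rpsa. Rpsa itself measured 6.21, 6.27 and 5.35 CPM in wild type and 5.01, 7.98 and 6.18 CPM with scrambled peptide, overlapping groups with a log2 difference of 0.10 ± 0.17 (SE).

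The neighbouring gene Prn rose with it. Prn (ENSMUSG00000098754, chromosome 2, 131909957 to 131956130, plus strand) is the annotated readthrough gene that joins Prnp, which encodes the prion protein, with Prnd, which encodes the related protein doppel. Prn measured 1.33, 1.31 and 1.04 CPM in wild type and 4.43, 3.81 and 4.36 CPM with scrambled peptide. All 3 scrambled-peptide libraries were above all wild-type libraries, by 3.42-fold (log2 1.77 ± 0.24 SE, adjusted p = 0.0168). The Cdk5i libraries held 2.99, 4.91 and 2.75 CPM. Prnp and Prnd lie on the same strand within or across Prn, and read pairs that fall in more than 1 gene were left out of the counts. Prnp therefore had 0 to 2 counts per library and Prnd 0, and neither could be tested. The only part of Prn outside both genes lies between 131938429 and 131950861. Pairs wholly inside Prnp or Prnd are missing from Prn too, so its rise measures neither Prnp nor the whole readthrough gene. Of the 14 tested genes within 500 kb of Prn, only Lamr1-ps1 had an unadjusted p under 0.05. The nearest on the far side, Rassf2, a Ras-association domain protein, had a log2 difference of -0.23 ± 0.17 (SE) with overlapping groups, and Slc23a2, an ascorbate transporter, one of 0.01 ± 0.07.

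Unc5c, a receptor for the guidance cue netrin that mediates repulsion of growing axons, fell. The gene (ENSMUSG00000059921) covers 141465216 to 141834924 on the plus strand of chromosome 3. It measured 801, 738 and 713 CPM in wild type and 468, 481 and 497 CPM with scrambled peptide. The lowest wild-type library was well above the highest scrambled-peptide library, and the log2 difference was -0.64 ± 0.07 (SE), with a 95% interval from -0.80 to -0.48 (adjusted p = 0.00441). The Cdk5i libraries held 487, 558 and 528 CPM. Another transcript past the threshold lay 512 kb upstream: 4930590L14Rik (ENSMUSG00000106540), a long non-coding RNA at 140951876 to 140953247 on chromosome 3, had 0 counts in each wild-type library and 20, 15 and 17 counts with scrambled peptide. That is at least 15.1-fold higher by the same bound (adjusted p = 0.0162). Few genes around them differed: of 58 tested genes within 6 Mb of Unc5c, 6 (10.3%) had an unadjusted p under 0.05, beside 10.1% of all genes. The gene next downstream, Bmpr1b, a bone morphogenetic protein receptor, had a log2 difference of -0.60 ± 0.46 (SE), and Pdlim5 behind it, a scaffold protein with PDZ and LIM domains, one of -0.41 ± 0.11 (unadjusted p = 0.00218, adjusted p = 0.276).

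Genes of the netrin system, Unc5c included, were more often lower than higher. Of 16 tested genes of the netrin system, 11 had negative and 5 positive log2 fold changes, with a median of -0.11 beside 0.0084 over all genes. That median was -0.03 without wild-type replicate 1. Of the 16 genes, 5 (31.2%) had an unadjusted p under 0.05, each of them lower with non-overlapping groups, a pattern found lower in 8.03% of all genes. They were Unc5c, Ntng1 (netrin-G1, a membrane-anchored netrin relative; log2 -0.35), Unc5d, another repulsive receptor (-0.34), Dcc, the attractive netrin receptor (-0.24), and Neo1, its relative neogenin (-0.16), and only Unc5c passed adjustment. Ntng1, Unc5d, Dcc and Neo1 were picked here after their values were seen. Unc5c is counted among the 16, the 11 and the 5, so these shares are in part set by it. Unc5b, the receptor of blood vessel guidance, measured 6.44, 6.27 and 7.53 CPM in wild type and 7.86, 7.94 and 7.37 CPM with scrambled peptide, with overlapping groups. Dscam, another guidance receptor and the gene of the list with the most counts, differed by -0.0026 ± 0.07 (SE). In the second list of guidance genes, slits, semaphorins and ephrins with their receptors, 28 of 42 were lower, and 6 lower against 1 higher had an unadjusted p under 0.05 (16.7%, beside 10.1% of all genes). The median of -0.06 was -0.02 without wild-type replicate 2. Slit2, a repellent ligand for Robo receptors, had the lowest p of that list, at 245, 242 and 215 CPM against 157, 191 and 193 CPM (log2 -0.38 ± 0.08 SE, adjusted p = 0.220), and the ephrin receptor Ephb2 was its lowest in the other direction (log2 0.22).

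A block of lower genes lay on chromosome 12. Gm9866 (ENSMUSG00000094002), a long non-coding RNA on the minus strand at 27050950 to 27160633, fell from 59.7, 63.8 and 63.5 CPM in wild type to 34.7, 31.7 and 40.3 CPM with scrambled peptide, with no overlap (log2 -0.81 ± 0.08 SE, adjusted p = 0.00142). The long non-coding RNA 2410018L13Rik, 4.04 Mb away at 22953997 to 23010284, fell from 1.47, 1.64 and 1.5 CPM to 0.308, 0.307 and 0.475 CPM (log2 -2.06 ± 0.31 SE, adjusted p = 0.0336). Dcdc2c (ENSMUSG00000020633), which encodes a protein with doublecortin domains of the kind that bind microtubules, lies 1.28 Mb to the other side at 28437795 to 28552399. It fell from 3.88, 5.42 and 3.95 CPM to 1.43, 1.58 and 2.22 CPM (log2 -1.34 ± 0.22 SE, adjusted p = 0.0492). In all 3 genes the Cdk5i libraries overlapped the wild-type range: 62.1, 61.6 and 66.3 CPM for Gm9866, 1.07, 1.52 and 1.79 CPM for 2410018L13Rik, and 3.84, 3.81 and 5.15 CPM for Dcdc2c. Both P301S groups were compared with the same wild-type libraries, so their values are only set side by side.

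**Figure D2:**
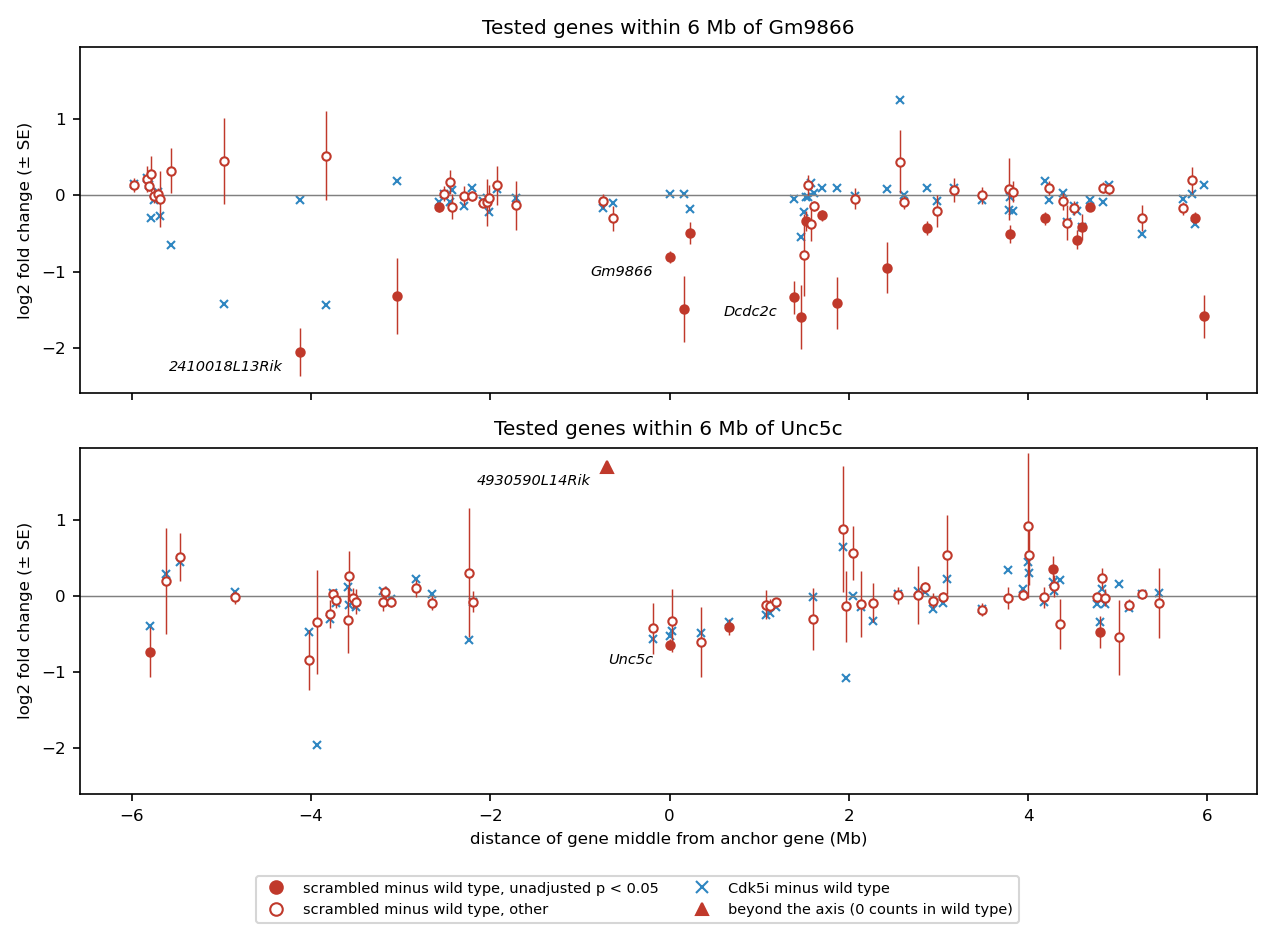
Log2 fold change (vertical axis, ± SE) of the tested genes within 6 Mb of Gm9866 (63 genes, upper panel) and of Unc5c (58 genes, lower panel), against the distance of the gene's middle from the anchor gene in Mb; red circles are scrambled peptide minus wild type, filled at an unadjusted p under 0.05, and blue crosses Cdk5i minus wild type. All 20 filled circles of the upper panel lie below 0, whereas the lower panel has 6 filled symbols, of which 4 lie below 0; its triangle is 4930590L14Rik, beyond the axis because wild type had 0 counts.

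The window of 6 Mb to each side of Gm9866 was chosen after the values were seen. Of the 63 genes tested in it, 20 (31.7%) had an unadjusted p under 0.05, beside 10.1% of all genes. Gm9866, 2410018L13Rik and Dcdc2c, which led to the window, are among the 20, so the share is in part set by that choice. All 20 were lower with scrambled peptide, beside 5.20% of all genes, while 21 of the 63 had positive log2 fold changes and the median was -0.10. The number of lower genes ran from 15 to 22 when 1 library at a time was left out, and from 0 to 2 higher genes joined them. With a score of oligodendrocyte markers in the fit 12 were lower at that threshold, while 46 of the 63 were negative and the median was -0.18. Without scrambled replicate 1 the median was -0.05 and without scrambled replicate 3 it was -0.17. Sox11, a transcription factor of immature neurons 173.6 kb from Gm9866, had a log2 difference of -0.49 ± 0.14 (SE; unadjusted p = 0.00412). Pxdn, a peroxidase that cross-links collagen of basement membranes, measured 124, 116 and 131 CPM in wild type and 103, 81.1 and 90.1 CPM with scrambled peptide (log2 -0.43 ± 0.09 SE, adjusted p = 0.182), beside a Cdk5i mean of 131 CPM. Dus4l, an enzyme that makes dihydrouridine in transfer RNA, measured 6.59, 6.13 and 6.40 against 4.24, 4.25 and 4.24 CPM (log2 -0.59 ± 0.12 SE, adjusted p = 0.182). Allc (an allantoicase), the neighbour of Dcdc2c, showed a log2 difference of -1.60 ± 0.42 (SE) at 0.805 to 1.64 CPM in wild type and 0.270 to 0.594 CPM with scrambled peptide. Lower genes stood between others that did not differ beyond their spread, such as Rnaseh1, an enzyme that removes RNA paired with DNA, at 0.14 ± 0.13, and Myt1l, a neuronal repressor of other cell fates chosen after its value was seen, at -0.09 ± 0.09.

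Ccnd3, which encodes cyclin D3, a partner of Cdk4 and Cdk6 in the step from G1 to S phase, rose. The gene (ENSMUSG00000034165) lies on the plus strand of chromosome 17 at 47505051 to 47599691. It measured 3.13, 2.57 and 2.36 CPM in wild type and 6.51, 5.39 and 5.63 CPM with scrambled peptide. The groups were apart by 2.18-fold (log2 1.12 ± 0.16 SE, adjusted p = 0.0181), and the Cdk5i libraries lay between them at 4.15, 4.34 and 4.69 CPM. Its end overlaps Bysl, a ribosome assembly gene on the opposite strand, which the stranded counts tell apart and which had a log2 difference of 0.20 ± 0.14 (SE) with an adjusted p of 0.670. Among the 18 tested G1 cyclins, their kinases, inhibitors and E2F partners, 13 were higher (72.2%, beside 51.7% of all genes) and 5 lower. The median of 0.09 was 0.03 without wild-type replicate 2. An unadjusted p under 0.05 was found for 2 of them (11.1%, beside 10.1% of all genes), both higher. They were Ccnd3 itself and E2f4, a factor that represses cell cycle genes and is named after its value was seen (log2 0.24). Cdk6 stood at 9.81, 9.26 and 8.98 CPM in wild type and 8.63, 7.23 and 6.85 CPM with scrambled peptide (log2 -0.30 ± 0.15 SE, adjusted p = 0.536). Rb1, the target of these kinases, overlapped between groups at 0.02 ± 0.09.

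A pair of genes with PDZ domains, the modules that hold proteins at synapses and cell junctions, moved in opposite directions. Pdzd2 (chromosome 15, 12359711 to 12739924) rose from 320.4, 351 and 333 CPM to 509, 436 and 450.2 CPM (log2 0.47 ± 0.07 SE, adjusted p = 0.0408). Pdzrn4, which pairs PDZ domains with a RING domain (chromosome 15, 92396881 to 92771819), fell from 464, 452 and 435 CPM to 334, 338 and 335 CPM (log2 -0.42 ± 0.07 SE, adjusted p = 0.0408). Neither gene's groups overlapped, and the genes lie 79.66 Mb apart. The Cdk5i means were 465 and 361 CPM, beside wild-type means that both fell outside the range of the Cdk5i libraries. None of the 9 tested genes within 500 kb of Pdzd2 had an unadjusted p under 0.05, and its direct neighbour Golph3, a Golgi protein, differed by 0.02 ± 0.10. In the list of 17 PDZ genes 12 were lower and 5 higher (29.4%, beside 51.7% of all genes), with a median of -0.07. An unadjusted p under 0.05 was found for 3 lower and 1 higher (23.5%, beside 10.1% of all genes), Pdzrn4 and Pdzd2 among them. Magi2, a synaptic scaffold with the most counts of the list, overlapped between groups (log2 -0.0091 ± 0.08).

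Npsr1, the receptor of neuropeptide S, which promotes arousal, fell from 30.3, 36.2 and 28.7 CPM to 19.4, 20.5 and 21.2 CPM (chromosome 9, 24097996 to 24316398, log2 -0.64 ± 0.11 SE, adjusted p = 0.0492). The groups did not overlap, and the Cdk5i libraries held 20.3 to 25.9 CPM. Of 30 tested neuropeptide receptors and related genes, Npsr1 included, 25 had negative and 5 positive log2 fold changes. The median of -0.13 was -0.09 without scrambled replicate 3. An unadjusted p under 0.05 was found for 3 in the lower direction, Npsr1 among them, and 1 in the higher direction, 13.3% in all beside 10.1% of all genes. The one in the higher direction was Oprd1, the delta opioid receptor, at 9.76, 13.0 and 12.9 against 13.7, 16 and 16.1 CPM (adjusted p = 0.449). Qrfpr, the receptor of the peptide 26RFa, had one of the lowest p-values among genes that did not pass, at 13.8, 10.9 and 11.7 against 6.82, 6.66 and 6.58 CPM (log2 -0.86 ± 0.18 SE, adjusted p = 0.182).

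The last genes past the threshold were a zinc finger gene and a long non-coding RNA. Zfp951 (chromosome 5, 104813169 to 104860070) encodes a zinc finger protein, a family of mostly DNA-binding repressors, and fell from 8.91, 11.1 and 10.9 CPM to 5.97, 3.51 and 5.03 CPM (log2 -1.08 ± 0.17 SE, adjusted p = 0.0441). Its Cdk5i libraries, at 8.87, 11.1 and 9.39 CPM, overlapped the wild-type range and not the scrambled-peptide range. Of 29 tested genes among Zfp950 to Zfp999, 7 had an unadjusted p under 0.05 (24.1%, beside 10.1% of all genes). Of these, 6 were lower, Zfp951 included, and the median over the list was -0.06. Zfp955b was the one higher, at 15, 15.3 and 14.2 against 15.7, 19.6 and 20.1 CPM (adjusted p = 0.330). These genes share sequence with close relatives, so their counts can be split between copies and are uncertain. The long non-coding RNA 2610035D17Rik (chromosome 11, 113043895 to 113201838) rose from 58.6, 54.8 and 56.9 CPM to 77.5, 73.5 and 76.4 CPM (log2 0.42 ± 0.06 SE, adjusted p = 0.0336). Of 7 tested genes within 500 kb, 1 had an unadjusted p under 0.05, the gene BC006965 beside Sox9, at 6.25, 6.22 and 9.21 CPM in wild type and 5.78, 4.03 and 4.87 CPM with scrambled peptide (log2 -0.56 ± 0.18 SE, adjusted p = 0.331), opposite in sign to 2610035D17Rik. The direct neighbours overlapped between groups: Slc39a11, a zinc transporter 43.0 kb away, differed by -0.12 ± 0.09 (SE), and Sox9, the glial and cartilage transcription factor on the other side, by -0.17 ± 0.29.

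Just short of the threshold stood genes of the circadian clock. The clock is a loop in which Clock or its relative Npas2 pairs with Bmal1, the product of Arntl, and switches on genes through a DNA element called the E-box. Their products include the repressors Per and Cry, the Rev-erb receptors Nr1d1 and Nr1d2, which in turn repress Arntl, and the output factors Dbp, Tef and Hlf, which act through another element, the D-box. Nr1d1 had the lowest p of all higher genes that did not pass and met the naming rule, at 19.7, 17.3 and 16.5 CPM in wild type and 24.0, 25.2 and 25.1 CPM with scrambled peptide (log2 0.48 ± 0.09 SE, adjusted p = 0.0925). Dbp came next, at 15.9, 19.1 and 17.5 against 24.0, 25.4 and 25.2 CPM (log2 0.50 ± 0.10 SE, adjusted p = 0.124). In both genes every scrambled-peptide library was above every wild-type library, which the naming rule required.

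These positions led to a list of clock genes, chosen after the values were seen and therefore described without a test. Of 13 repressors and rhythmic outputs Per3 had 0 counts in the 6 libraries. Whether read pairs left out for falling in more than 1 gene set that 0 was not tested. All 12 tested genes had positive log2 fold changes, with a median of 0.36 beside 0.0084 over all genes. The median was 0.23 without scrambled replicate 3 and 0.20 with a score of oligodendrocyte markers in the fit. Of these 12, 8 had an unadjusted p under 0.05, beside 4.86% of all genes in that direction. None passed adjustment, whereas 2 did with DESeq2 and 5 with edgeR without a filter on low counts. Ciart, a repressor of Clock and Bmal1, measured 3.32, 4.12 and 3.86 CPM in wild type and 5.20, 6.09 and 6.06 CPM with scrambled peptide (log2 0.62 ± 0.15 SE). Hlf measured 70.1, 72.5 and 78.0 against 108, 86.0 and 99.5 CPM (log2 0.41 ± 0.10), and Cry2 81.2, 73.1 and 90.2 against 94.8, 94.2 and 120.3 CPM (log2 0.34 ± 0.11). Groups did not overlap in these 3 genes. Per1 had the largest difference, 0.69 ± 0.34, but overlapped, at 36.8, 28.4 and 49.8 against 51.9, 49.8 and 83.8 CPM, and so did Per2 at 0.39 ± 0.24. Nr1d2, the second Rev-erb gene, differed by 0.18 ± 0.07 and Tef by 0.11 ± 0.07.

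**Figure D3:**
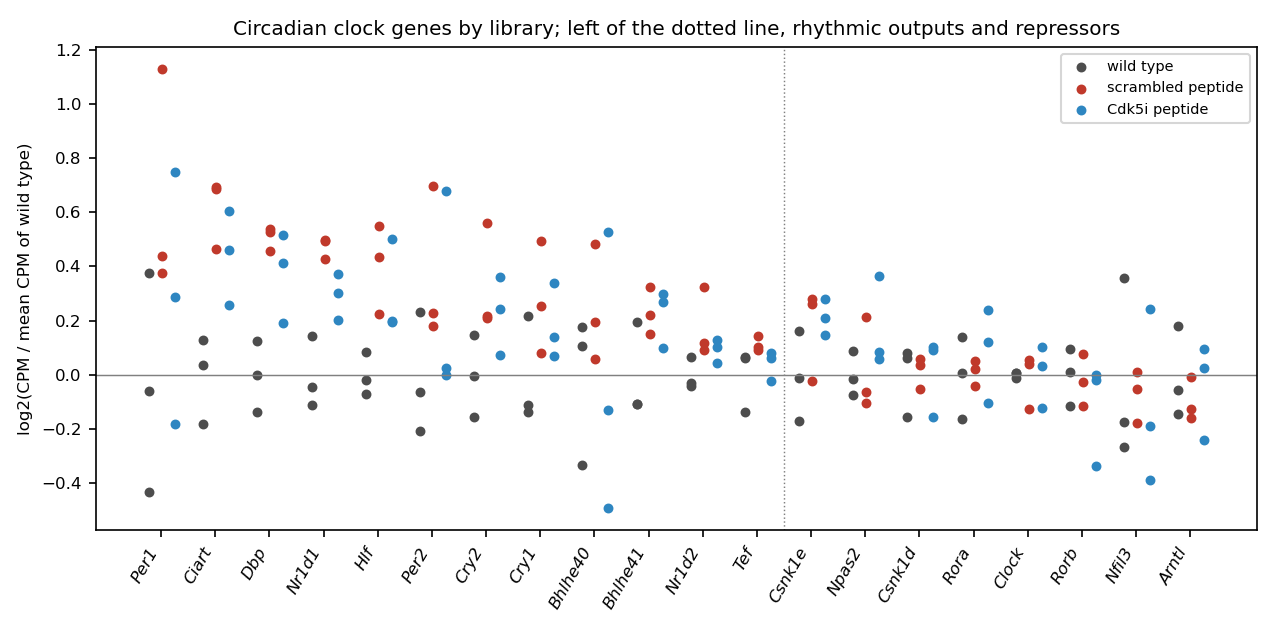
Circadian clock genes in each library, as log2 of CPM over the wild-type mean (vertical axis), for wild-type (grey), scrambled-peptide (red) and Cdk5i (blue) libraries; left of the dotted line stand 12 repressors and outputs, right of it 8 activators and partners. The red points of Ciart, Dbp, Nr1d1 and Hlf lie above the grey ones, whereas the groups overlap in all 8 genes to the right.

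The activators and their partners did not share this lean. Arntl measured 94.3, 88.7 and 111 CPM in wild type and 90.0, 87.9 and 97.5 CPM with scrambled peptide, a log2 difference of -0.10 ± 0.10 (SE). Clock differed by -0.0075 ± 0.07 and Npas2 by 0.02 ± 0.10. Over the 8 activators, receptors of the Ror family, casein kinases and Nfil3, none had an unadjusted p under 0.05 and all groups overlapped. Nfil3 is itself a repressor but was placed in this list, and it differed by -0.07 ± 0.20. The contrast between the lists therefore rests in part on that placement. Among the 12 repressors and outputs, 5 to 9 had an unadjusted p under 0.05 when 1 library at a time was left out, 5 of them without wild-type replicate 1, without wild-type replicate 2 or without scrambled replicate 3. With the oligodendrocyte score in the fit the number was 3, while 2 activators or partners then had an unadjusted p under 0.05 and were lower. All 12 had positive log2 fold changes in each of the 17 alternative fits. Per1, Per2 and Bhlhe40 are also switched on by neuronal activity. The 25 immediate early genes, the fast responders to such activity, summed to 652, 533 and 898 CPM in wild type. With scrambled peptide they summed to 587, 535 and 1206 CPM. By gene, 19 of 24 tested were higher (79.2%, beside 51.7% of all genes), with a median of 0.17. It ran from -0.35 without scrambled replicate 3 to 0.59 without wild-type replicate 3. Most of the sum was Homer1, with means of 420 CPM of 694 in wild type and 458 CPM of 776 with scrambled peptide. Scrambled replicate 3 and wild-type replicate 3 were the highest of their groups in that sum, as they were for Per1, Per2, Cry2 and Cry1, and the part of activity or of the hour of collection in these values was not tested.

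The E-box is read in the promoter of some of these genes. The windows below give 250 bases upstream of the start of Ciart (chr3:95882229-95882478, minus strand) and Cry1 (chr10:85185055-85185304, minus strand) from RefSeq on GRCm38, 5′ to 3′, with the E-box CACGTG in capitals; they are shown because Ciart held more copies than any other window of the list.
Ciart: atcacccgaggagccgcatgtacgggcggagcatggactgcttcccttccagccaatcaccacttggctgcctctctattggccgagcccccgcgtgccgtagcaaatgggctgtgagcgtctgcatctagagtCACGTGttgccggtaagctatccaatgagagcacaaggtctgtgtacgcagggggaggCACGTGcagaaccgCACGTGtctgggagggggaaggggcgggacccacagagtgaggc
Cry1: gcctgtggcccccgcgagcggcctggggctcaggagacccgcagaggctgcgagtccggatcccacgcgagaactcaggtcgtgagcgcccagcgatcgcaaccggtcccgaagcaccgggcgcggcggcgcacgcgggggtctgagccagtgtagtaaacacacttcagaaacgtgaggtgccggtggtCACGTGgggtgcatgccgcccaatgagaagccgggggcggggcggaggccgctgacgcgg
The E-box reads the same on both strands. It occurred in 6 of 13 windows (46.2%) of the repressors and outputs, which stand for 11 of the 13 genes, and in 0 of 14 windows of 7 activators and partners, beside 1978 of 32851 windows of all genes (6.02%). Ciart held 3 copies, Per1, Cry1, Tef and Bhlhe41 had windows with 1, and Nr1d1, Dbp, Hlf and Cry2 had none in these 250 bases. The repressors and outputs were listed as clock genes with E-box or D-box control, so their share of E-boxes follows in part from that choice. A D-box was found in 1 of their 13 windows (7.69%), that of Per3, beside 0.931% of all windows. A match is a description of the letters and not a measured site.

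Receptors and adhesion genes of synapses had more lower than higher members, although no gene of these lists passed the test. Over all genes 10.1% had an unadjusted p under 0.05, 5.20% lower and 4.86% higher, and 51.7% had a positive log2 fold change. Among 24 ionotropic glutamate receptor genes 15 were lower, with a median of -0.05 that was 0.0050 without wild-type replicate 2, and 4 against 1 had an unadjusted p under 0.05. Grik1, a kainate receptor subunit, had the lowest p of these, at 391.8, 367 and 354 CPM in wild type and 306, 287 and 288 CPM with scrambled peptide (log2 -0.34 ± 0.07 SE, adjusted p = 0.199), and Grin2b, an NMDA receptor subunit, measured 2761, 2595 and 2509 against 2083, 2087 and 2405 CPM. Of 9 metabotropic glutamate receptor genes 7 were lower and 4 (44.4%) had an unadjusted p under 0.05, all lower, with a median of -0.07 that was -0.03 without scrambled replicate 1. Of 23 GABA receptor and inhibitory synapse genes 15 were lower and 6 (26.1%) had an unadjusted p under 0.05, all lower, led by the receptor subunit Gabra3 at 96.8, 96.1 and 85.2 against 76.7, 77.8 and 77.7 CPM (log2 -0.26 ± 0.06 SE, adjusted p = 0.244). Of 32 postsynaptic scaffold and adhesion genes 21 were lower, with a median of -0.15 that was -0.09 without scrambled replicate 2, and 7 against 1 had an unadjusted p under 0.05. Their lowest p were those of the adhesion gene Cntnap5a, at 810, 694 and 676 against 613, 546 and 522 CPM, and, in the other direction, of Dlg4, the scaffold PSD-95, at 63.1, 67.4 and 69.4 against 70.3, 75.6 and 83.6 CPM.

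**Figure D4:**
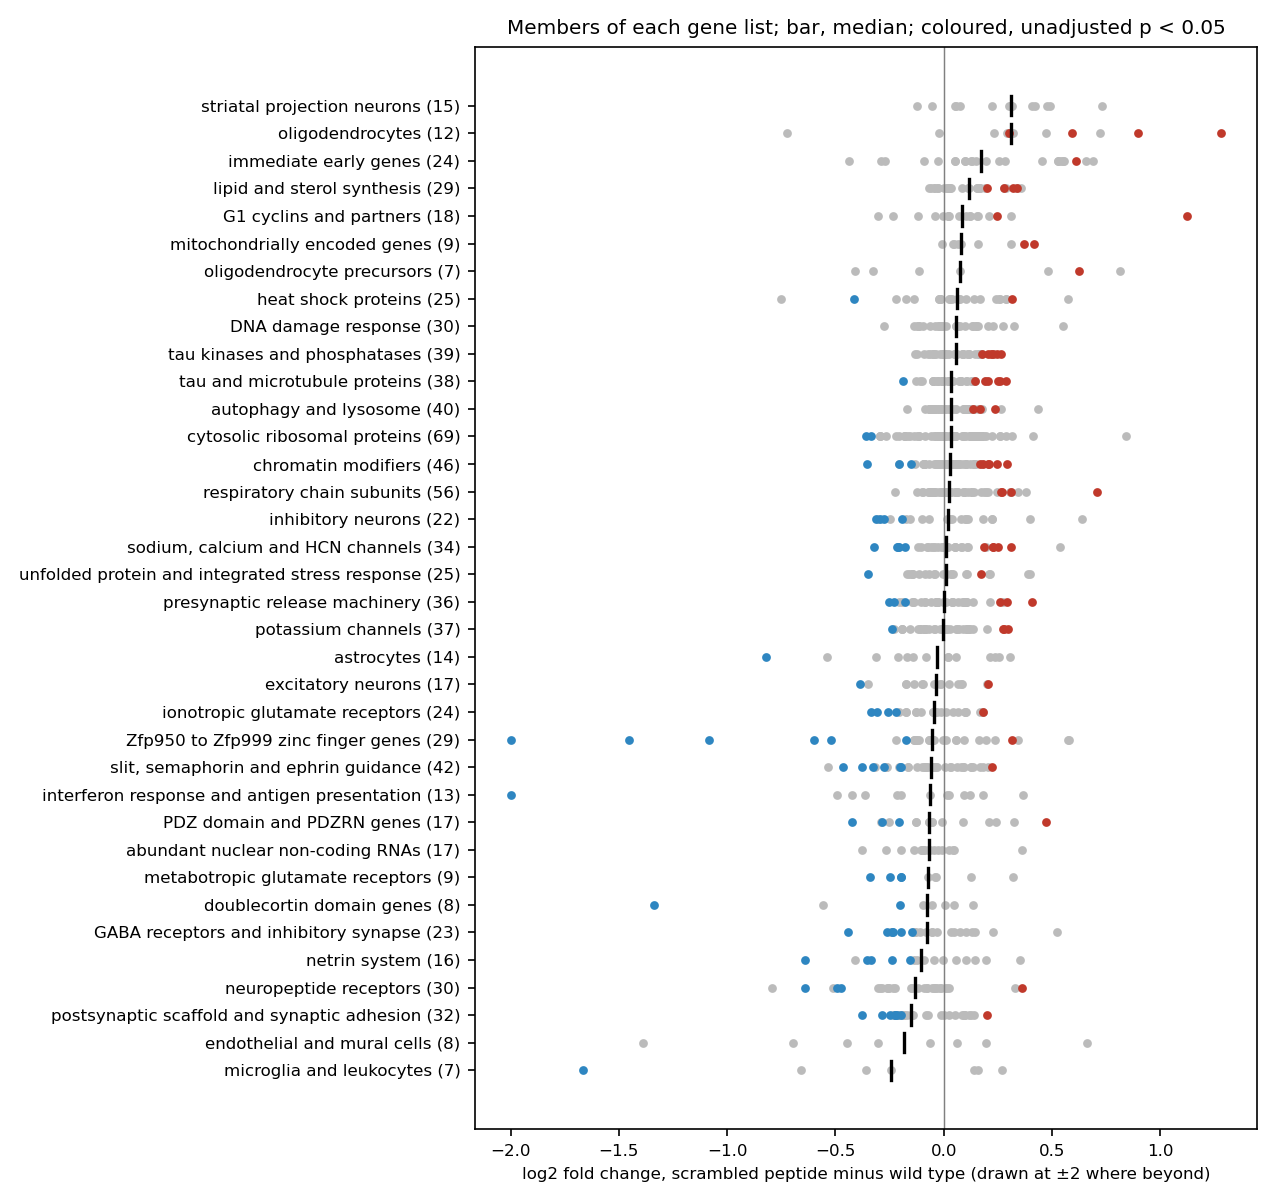
Log2 fold change (horizontal axis, scrambled peptide minus wild type) of the tested members of each gene list with at least 5 tested genes; the number tested follows the name, black bars are medians, and members with an unadjusted p under 0.05 are red where higher and blue where lower, with values beyond 2 in size drawn at 2. The postsynaptic, neuropeptide receptor and netrin lists have medians of -0.15, -0.13 and -0.11, and the striatal and oligodendrocyte lists both 0.31.

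Presynaptic genes were split evenly, 18 higher and 18 lower of 36, with a median of 0.0030. Ppfia2, a scaffold of the release site, measured 786, 784 and 687 CPM in wild type and 608, 609 and 680.0 CPM with scrambled peptide (log2 -0.25). Genes close to the threshold on the higher side were Cabp1, a neuronal calcium sensor (log2 0.41), Hrh3, the histamine H3 receptor (0.52), and Baiap2, a postsynaptic organiser of actin (0.31). On the lower side were Pcsk5, a protease that activates secreted proteins (-0.48), Brinp3, a brain protein induced by retinoic acid (-0.52), and Sorcs3, a sorting receptor of the synapse (-0.46). Their adjusted p-values ran from 0.0925 (Pcsk5) to 0.220 (Baiap2), and in all the groups did not overlap, which the rule for naming them required.

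No gene of the lists of tau kinases and microtubule proteins passed the test. Of 39 tested tau kinases and phosphatases 25 were higher and 14 lower, with a median of 0.06, and 6 (15.4%) had an unadjusted p under 0.05, all higher, beside 10.1% of all genes and 4.86% higher. Ttbk1, a kinase that phosphorylates tau, measured 46.3, 49.7 and 50.4 CPM in wild type and 54.7, 57.1 and 58.8 CPM with scrambled peptide (log2 0.22 ± 0.07 SE, adjusted p = 0.321). Cdk5, a kinase active mainly in neurons, stood at 16.2, 15.2 and 16.1 against 19.1, 22 and 16.1 CPM (log2 0.26 ± 0.12 SE, adjusted p = 0.477), with overlapping groups. Its activator Cdk5r1, p35, differed by -0.0036 ± 0.08, and Cdk5r2, p39, had 0 counts in the 6 libraries. Read pairs that fall in more than 1 gene were left out, and whether this touched Cdk5r2 was not tested, so its 0 does not show absence. Of 38 tau and microtubule genes 24 were higher and 14 lower, with 6 higher against 1 lower at an unadjusted p under 0.05 (18.4%). Clip1, which tracks growing microtubule ends, had the lowest p, at 150, 149 and 154 against 173, 168 and 179.9 CPM (log2 0.20 ± 0.06 SE, adjusted p = 0.285), and Stmn2, a stathmin that regulates microtubules in axons, differed by -0.19 ± 0.06.

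Markers of other cells were counted in the same nuclei. Oligodendrocyte markers, the genes of myelin and its makers, summed to 176, 170 and 168 CPM in wild type and 214, 197 and 225 CPM with scrambled peptide, so the groups did not overlap. Of 12 tested markers 10 were higher (83.3%, beside 51.7% of all genes), with a median of 0.31. An unadjusted p under 0.05 was found for 4 (33.3%), all higher, beside 4.86% of all genes in that direction. Mobp, a myelin protein, measured 1.47, 2.34 and 1.68 against 4.58, 2.85 and 2.77 CPM (adjusted p = 0.307). Enpp2, a lipid enzyme and the marker with the highest level, measured 84.1, 83.7 and 74.5 against 96.1, 101.7 and 101.0 CPM. Its means made up 80.8 of 171 CPM of the sum in wild type and 99.6 of 211.7 CPM with scrambled peptide. Ermn went the other way without overlap, at 0.948, 0.514 and 0.499 against 0.308, 0.395 and 0.475 CPM (log2 -0.73, adjusted p = 0.587). Mog and Opalin, which define mature oligodendrocytes, averaged 5.83 and 4.5 counts over the 6 libraries and were not tested. When a score of these markers was put into the fit, 1 gene passed, Lamr1-ps1, against 13 without it. Because the marker sums did not overlap between the groups, that fit cannot cleanly separate the score from the group difference. Fewer genes can pass for that reason alone. The log2 differences in that fit were -0.65 for Unc5c, -0.83 for Gm9866 and 1.16 for Ccnd3, about as large as without the score, and -0.43 for Npsr1 and 1.38 for Prn, which were smaller. List medians moved as well, to -0.34 for the postsynaptic, -0.38 for the metabotropic, -0.19 for the ionotropic and -0.17 for the GABA list, to -0.22 for the netrin and -0.16 for the slit list, and to -0.01 for the PDZ, -0.02 for the Zfp950 to Zfp999 and 0.02 for the tau kinase list. Inhibitory neuron markers summed to 4182, 4357 and 3817 CPM in wild type and 3401, 3556 and 3760 CPM with scrambled peptide, again without overlap. By gene, however, 12 of 22 had positive and 10 negative log2 fold changes, with a median of 0.02 that ran from -0.09 without scrambled replicate 3 to 0.10 without scrambled replicate 1. At an unadjusted p under 0.05 4 were lower and none higher, beside 5.20% and 4.86% of all genes. A large part of the sum came from Erbb4, a neuregulin receptor, with means of 1161 and 958 CPM, and Adarb2, an RNA-binding protein, with means of 857 and 699 CPM (log2 -0.29 ± 0.08 SE, adjusted p = 0.285 for Adarb2). Markers of striatal projection neurons, which a cortical dissection can carry along, were higher in 13 of 15 genes with a median of 0.31 that was 0.03 without wild-type replicate 1 and 0.55 without wild-type replicate 2, none at an unadjusted p under 0.05, and their sum overlapped widely, at 2244 to 3547 CPM in wild type and 2215 to 3252 CPM with scrambled peptide. Microglial and leukocyte markers summed to 55.6 to 162 CPM in wild type and 69.6 to 82.5 CPM with scrambled peptide. The defining marker Itgam had 0 counts, and whether pairs left out for falling in more than 1 gene touched it was not tested. The part of these cells in the results above was not tested, and the fit with the oligodendrocyte score cannot decide it.

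Long genes tended to be lower. Of 598 tested genes over 300 kb 21.9% had a positive log2 fold change, beside 51.7% of all genes and 56.3% of genes under 10 kb, and the medians were -0.11 and 0.04. At an unadjusted p under 0.05, 135 of these long genes were lower and 6 higher, whereas 90 of 3899 genes under 10 kb were lower and 169 higher. Unc5c, Pdzrn4 and Pdzd2 are themselves over 300 kb, and Pdzd2 rose. By library, the median deviation of long genes from the mean of the 6 libraries was 0.06, 0.13 and -0.02 on the log2 scale in wild type and -0.06, -0.09 and -0.0040 with scrambled peptide. Wild-type replicate 3 thus lay below scrambled replicate 3, and the groups overlapped in this summary although most long genes leaned one way. Without wild-type replicate 2 the share of long genes with a positive log2 fold change was 34.4%, and without wild-type replicate 3 it was 16.1%. Leaving out 1 library at a time gave 89 to 158 lower and 5 to 24 higher long genes. Under 10 kb the median was -0.02 without scrambled replicate 2, so the sign of the short genes turned, and 73 to 257 of them were higher. Many of the receptor and adhesion genes above are long, and the part of length in their lean was not tested.

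**Figure D5:**
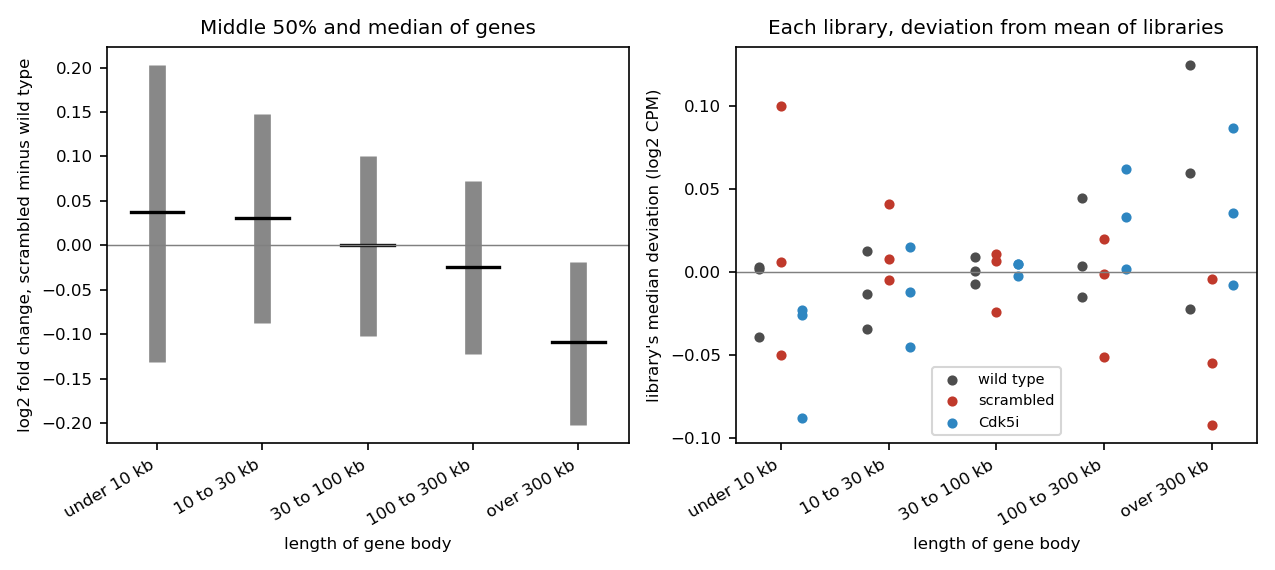
Left, log2 fold change of scrambled peptide minus wild type by length of the gene body, with the median (black) and the interquartile range of genes (grey bars); right, each library's median deviation in log2 CPM from the mean of the 6 libraries compared, for wild type (grey), scrambled peptide (red) and Cdk5i (blue). The median falls from 0.04 in genes under 10 kb to -0.11 over 300 kb, and the red and grey points overlap in each class.

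Lists of stress and clearance genes held shares past the unadjusted threshold close to or below the 10.1% of all genes. Among 25 tested heat shock genes 1 was higher and 1 lower at an unadjusted p under 0.05, as among 25 genes of the unfolded protein and integrated stress responses, where the chaperone Calr measured 74.9, 68.5 and 80.4 CPM in wild type and 50.9, 60.1 and 64.5 CPM with scrambled peptide (log2 -0.35 ± 0.11 SE, adjusted p = 0.330). None of 30 DNA damage genes had an unadjusted p under 0.05, and of 40 autophagy and lysosome genes 3 had, all higher, such as Atp6v0d1, a subunit of the proton pump of lysosomes (log2 0.24 ± 0.07). Outside these lists, lipid and sterol synthesis leaned higher in 23 of 29 genes (79.3%, beside 51.7% of all genes). The median of 0.12 was 0.04 without wild-type replicate 2. Of the 29, 4 (13.8%) had an unadjusted p under 0.05, all higher, beside 4.86% of all genes in that direction. Fasn, fatty acid synthase, measured 32.5, 28.9 and 35.3 against 37.2, 41.0 and 39.3 CPM (log2 0.28 ± 0.10, adjusted p = 0.360). Of 13 tested interferon and antigen presentation genes, 1 had an unadjusted p under 0.05. That gene was H2-D1, which encodes a class I antigen-presenting protein, at 1.75, 2.06 and 2.31 CPM in wild type and 1.19, 0 and 0.0396 CPM with scrambled peptide, so that 1 scrambled-peptide library stood near the wild-type range and the others at or near 0 (adjusted p = 0.488). H2-D1 has close relatives in the same cluster that can share its reads.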

How the data were processed

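Nuclei were sorted for NeuN from mouse cortex and their total RNA was made into stranded libraries read as pairs of 40 bases, per the labels' protocols. Per the file headers, the authors deposited unnormalized counts, 1 whole number of read pairs for each gene, made by featureCounts 2.0.0 on whole genes (exons and introns) of Ensembl release 102 (GRCm38), reverse-stranded. Pairs that fall in more than 1 gene on a strand are not counted at that setting. The submitters' processing notes also name STAR 2.7.9a and DESeq2 1.36.0.

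Counts were fitted with edgeR 4.0.16 in R 4.3.3: filterByExpr, TMM, 1 robust quasi-likelihood model of 3 group means over 9 libraries, Benjamini-Hochberg adjustment over 16046 genes. Symbols matched 55141 of 55401 genes. Groups came from sample titles, and no libraries were copies (chi-square per gene 8.96 to 27.0 within groups). The procedure was tested on simulated data. Alternatives were DESeq2 1.42.0, limma 3.58.1, other filters, scalings, covariates and left-out libraries.

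The genes and the 38 lists were chosen with earlier results of these data known. Named were genes past the threshold, the next 10 in each direction by p (mean count of at least 50, groups apart), each list's lowest p in each direction and its highest CPM, neighbours within 500 kb, and tau, prion and Cdk5 genes. Clock lists were added after the values were seen. A few genes that these rules select are not reported here.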

Additional observations from a re-analysis of the deposited data

How the results depend on the processing

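The number of genes past the threshold, 13 with 6 higher and 7 lower, moved with the analysis, while none of the 13 changed direction in any of 17 alternatives in which it was tested. The clock lists, the 6 Mb window and the length classes were added to these alternatives after seeing the data. DESeq2 gave 75 genes (20 higher, 55 lower), including all 13, and no low-count filter gave 318 (115 higher, 203 lower). A mean of at least 50 counts gave 5 (3 and 2), where 3 of the 13 were not tested. Non-robust dispersion gave 6 with 2 lower, a mitochondrial score in the fit 4 lower, and an oligodendrocyte score 1 gene, with 1 higher and 0 lower. At an unadjusted p under 0.05 that last fit had 1876 genes. Leaving out 1 library at a time gave 2 to 17 genes, 1 to 8 higher and 1 to 9 lower. Limma-voom, DESeq2 size factors, library sizes without ribosomal and mitochondrial RNA and a fit of the 6 libraries alone gave 11 to 15. With the replicate block 2 genes passed (1 higher, 1 lower), Lamr1-ps1 and Gm9866. Whether the numbers pair samples is not stated: deviations of same-numbered libraries correlated at 0.194, 0.101 and 0.095, each library best with its own number, a hint from the data only. The cause of these changes was not tested. Median log2 fold changes of the netrin, neuropeptide receptor, GABA and postsynaptic lists were negative and that of oligodendrocyte markers positive in each alternative. At this depth, genes at a few CPM, such as Prn and Ccnd3, rest on 23 to 169 counts per library, and the smallest differences that passed were near 0.42 on the log2 scale.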
